A study of Mus musculus with 6 samples.

Results

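Glycolysis and hypoxia-response genes were examined in macrophages that lack Ube3a. The group was defined by name as 37 symbols: 5 genes of oxygen sensing, 4 transporters of glucose and lactate, 17 genes for the steps of glycolysis and their regulators, and 11 other targets of the hypoxia-inducible factor HIF1. The definition goes by symbol and sets no threshold on a measured value, but the genes were picked with earlier results of these data known. The symbols filled 38 of the 16836 rows of the expression table, because Aldoa stood under 2 gene identifiers, and 37 of the 38 rows were expressed highly enough to be among the 12118 genes tested. The second Aldoa identifier (ENSMUSG00000114515), which averaged 0.650 CPM (reads scaled to the total of each library) in KO libraries and 0.721 CPM in WT libraries, was not tested.

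The cells were bone marrow-derived macrophages, which are grown in culture from marrow precursors. The 3 KO libraries came from mice without a working Ube3a gene, labelled Ube3a-/-, and the 3 WT libraries from their wild-type littermates. Ube3a encodes an E3 ubiquitin ligase, an enzyme that marks proteins for degradation by the proteasome. The labels give no treatment, oxygen level, strain, age or sex, do not describe the deleted part of the gene, and do not say that each library is a separate animal, so the p-values measure a spread between libraries, part of which may be technical.

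In glycolysis, glucose enters the cell through transporters, is trapped by hexokinase, committed by phosphofructokinase, split, and oxidised to pyruvate, which lactate dehydrogenase turns into lactate for export. HIF1α, encoded by Hif1a, is made continuously. With oxygen present, prolyl hydroxylases (Egln1 to Egln3) mark it, and the VHL ubiquitin ligase then sends it to the proteasome. When oxygen falls, or when macrophages are activated by microbial products, HIF1α accumulates, pairs with ARNT and binds the letters ACGTG or GCGTG in the regulatory DNA of its targets, among them most glycolytic enzymes.

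The libraries held 25454862, 30957583 and 32294791 reads over the table in KO, and 31046256, 28651459 and 35517269 in WT. Ube3a itself measured 69.7, 61.2 and 77.0 CPM in the KO libraries, against 207, 194 and 178 CPM in the WT libraries. All 3 KO libraries were below all 3 WT libraries, and the level fell to 35.9% of the WT mean (log2 fold change −1.47, limma adjusted p = 0.00444). It is 1 of 2 genes called among the 12118, or 0.0165%, the other being Fah. The labelled cell type was checked on 12 macrophage markers, all of which were in the table, with summed levels of 14640 to 17340 CPM in KO and 15400 to 16570 CPM in WT, most of it Lyz2. Single markers varied more, Mrc1 running from 531.1 to 897.1 CPM in KO and from 277 to 738 CPM in WT. Markers of erythroid cells were absent from the table (0 of 10), and those of T and NK cells summed to less than 1 CPM in every library. Markers of B cells, 2 of 8 in the table, summed to 2.70 to 4.38 CPM in KO and 2.08 to 4.08 CPM in WT, most of it Cd79b. Stromal markers, 4 of 10 in the table, summed to 1.67 to 2.25 CPM in KO and 1.67 to 1.94 CPM in WT. Most of that was Pdgfrb, except in WT replicate 2. Progenitor markers, 7 of 10 in the table, summed to 33.5 to 43.6 CPM in KO and 36.6 to 87.0 CPM in WT. Most of that was the single gene Cd34, at 25.8, 24.5 and 34.0 CPM in the KO libraries, against 77.3, 28.9 and 74.1 CPM in the WT libraries. Xist, the RNA made from the inactive X chromosome of females, had 30161, 28 and 35256 reads in KO and 41519, 14 and 42232 reads in WT. By Xist alone, replicate 2 of each genotype read as male and the other libraries as female. Neither replicate 2 library therefore repeats the RNA of the others of its genotype. Fits without both replicate 2 libraries keep only the libraries with high Xist.

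None of the 37 tested glycolysis and hypoxia-response genes passed the threshold for a change between KO and WT. By limma on log2(CPM + 1), with Benjamini-Hochberg adjustment over all tested genes, 0 rose, against 0.00825% of all tested genes, and 0 fell, against 0.00825%, with adjusted p-values of 0.866 to 0.991. Without adjustment, 1 of the 37 had a p under 0.05 (2.70%), against 4.13% of all tested genes, and it was higher in KO, as were 1.68% of all tested genes. This number was 0 to 5 with a single library left out, the 5 being reached without WT replicate 2 (13.5%, against 10.6% of all genes tested in that fit). By limma-voom, a test that weights each log2 value by the precision predicted from its read count, the number called was also 0. The KO and WT libraries overlapped for 36 of the 37, the exception being Hk3, which was higher in KO. Over all tested genes the libraries did not overlap for 9.95%, made up of 4.41% higher in KO and 5.55% lower in KO.

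Fold changes were small in both directions. Of the 37 genes, 20 had a higher fitted mean in KO (54.1%), against 50.4% of all tested genes, and the median log2 fold change was 0.01 beside 0.00 over all tested genes. The number with a higher fitted mean rested on single libraries, being 12 without KO replicate 2 and 8 without both replicate 2 libraries. The fold changes ran from −0.24 for Gapdh to 0.34 for Ndrg1, and most of them, being near 0, moved by more than 1.5 times when 1 library was left out. The 95% interval lay within a 2-fold change for all 37 and within a 1.5-fold change for 33 of them (89.2%, against 90.4% of all tested genes). Leaving out both replicate 2 libraries kept 2 libraries a genotype, all high in Xist. In that fit, 8 of the 37 had an unadjusted p under 0.05 (21.6%), against 11.3% of all genes tested. Of these, Hk3, Pfkp and Vegfa were higher in KO, and Slc2a1, Ankrd37, Gapdh, Gpi1 and Hk2 were lower in KO. None passed the adjusted threshold, the lowest limma adjusted p being 0.160 for Slc2a1. A positive fold change in 8 of 37 (21.6%) stood against 49.7% of all genes in that fit. In bulk RNA, fewer cells that express a gene and less RNA per cell cannot be told apart, so these levels are averages over each culture.

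**Figure D1:**
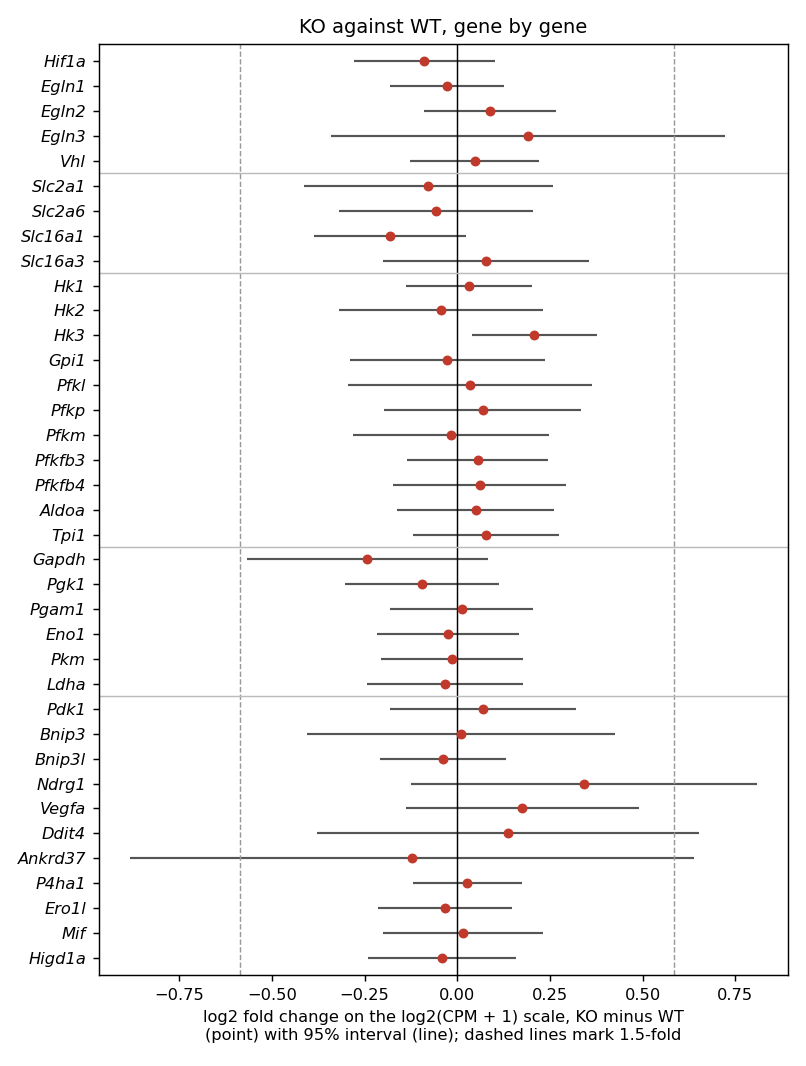
Log2 fold change of KO over WT with its 95% interval (limma, on log2 of CPM plus 1) for each of the 37 tested genes, arranged by role. The interval lies off 0 for Hk3 alone, and the fitted values run from −0.24 for Gapdh to 0.34 for Ndrg1.

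The promoters of these genes were searched for the core letters of the hypoxia response element, ACGTG and GCGTG. RefSeq promoter windows on GRCm38.p6, running from 250 bases before to 50 after a listed start, were matched for 34 of the 37 genes. Some genes have several listed windows, such as Ldha with 2 and Pfkm with 4. Only the first listed window of each gene was searched, here and for the genes compared. ACGTG was found, on either strand, in 21 of the 34 (61.8%), against 26.6% of tested genes and 19.7% of all genes with a window. GCGTG was found in 18 of the 34 (52.9%), against 53.1% of tested genes with a window, so the share of this form was alike. By role, the ACGTG share ran from 36.4% in the first steps of glycolysis to 80.0% in oxygen sensing. The letters CACGTG read the same on both strands and hold ACGTG on each. Many of these genes are listed because HIF1 is known to bind near them, so the share describes the list and was not tested, and a match is not a measured binding site.

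Windows of 4 genes are shown, with ACGTG and GCGTG on either strand in capitals. Ldha is a textbook HIF1 target, Ankrd37 and Egln3 varied most between libraries of a genotype along with Ddit4, and Hk3 is the gene whose KO and WT libraries did not overlap. Each is written from 5′ to 3′ along the strand of its gene.
Ldha, chr7:46845554-46845853, plus strand: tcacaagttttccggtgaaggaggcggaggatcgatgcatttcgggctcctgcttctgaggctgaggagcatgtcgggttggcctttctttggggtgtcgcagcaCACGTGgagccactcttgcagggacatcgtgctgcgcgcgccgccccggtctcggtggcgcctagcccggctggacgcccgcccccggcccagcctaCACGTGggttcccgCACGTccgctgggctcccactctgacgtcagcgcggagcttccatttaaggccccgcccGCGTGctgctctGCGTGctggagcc
Ankrd37, chr8:45999801-46000100, minus strand: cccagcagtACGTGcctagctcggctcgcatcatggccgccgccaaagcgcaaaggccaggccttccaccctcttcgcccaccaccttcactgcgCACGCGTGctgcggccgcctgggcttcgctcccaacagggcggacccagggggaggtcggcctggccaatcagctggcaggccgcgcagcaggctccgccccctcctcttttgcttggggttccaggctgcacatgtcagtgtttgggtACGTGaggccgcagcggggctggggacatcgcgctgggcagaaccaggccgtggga
Egln3, chr12:54203825-54204124, minus strand: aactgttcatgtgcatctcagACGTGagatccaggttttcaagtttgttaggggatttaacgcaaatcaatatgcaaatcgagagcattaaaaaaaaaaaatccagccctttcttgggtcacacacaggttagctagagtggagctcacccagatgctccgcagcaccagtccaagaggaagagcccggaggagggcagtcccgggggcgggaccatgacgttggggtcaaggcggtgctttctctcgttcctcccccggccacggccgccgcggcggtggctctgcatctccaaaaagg
Hk3, chr13:55021336-55021635, minus strand: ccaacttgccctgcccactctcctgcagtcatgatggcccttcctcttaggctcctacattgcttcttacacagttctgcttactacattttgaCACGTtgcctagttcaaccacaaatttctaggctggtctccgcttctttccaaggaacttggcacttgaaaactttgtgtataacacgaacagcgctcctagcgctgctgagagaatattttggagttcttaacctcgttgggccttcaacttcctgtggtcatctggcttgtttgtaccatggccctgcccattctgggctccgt
The Ldha window holds CACGTG at 2 places, while the Hk3 window has a single match. Ankrd37 and Egln3 each carry ACGTG upstream of the start. None of these 4 genes passed the test between KO and WT, as their values below show.

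Oxygen sensing comprised Hif1a, its 3 prolyl hydroxylases and Vhl, and 0 of the 5 passed the test in either direction. Hif1a (chromosome 12, 73901375 to 73947530, on the plus strand, GRCm38) measured 184, 162 and 185 CPM in the KO libraries, against 204, 188 and 173 CPM in the WT libraries. KO replicate 2 was the lowest of the 6 libraries and WT replicate 1 the highest, and the genotypes overlapped (log2 fold change −0.09, 95% interval −0.28 to 0.10, limma adjusted p = 0.877). On the scale on which different genes were compared, CPM per kilobase of exon, the level of Hif1a averaged 30.01 CPM per kilobase in KO and 32.0 in WT.

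The 3 prolyl hydroxylases lay in one order in every library when compared per kilobase. Egln1, the main oxygen sensor of most tissues, made up 47.9% ± 1.63 of their summed level in KO and 50.5% ± 2.69 in WT (SD, n = 3 each). Egln2 made up 37.3% ± 2.68 in KO and 36.2% ± 2.14 in WT. Egln3, itself a HIF target, made up the remaining 14.8% ± 3.12 in KO and 13.3% ± 2.91 in WT. Egln3 was also among the most variable of the genes described here, at 13.7, 23.6 and 21.9 CPM in the KO libraries, against 17.5, 12.6 and 21.05 CPM in the WT libraries. The lowest values were those of KO replicate 1 and WT replicate 2, so the spread within each genotype was wider than the difference between them (log2 fold change 0.19, 95% interval −0.34 to 0.72, limma adjusted p = 0.892). With KO replicate 1 left out it was 0.42, with WT replicate 2 left out 0.00, and with both replicate 2 libraries left out −0.14. Vhl, the recognition subunit of the ligase, varied less, averaging 23.9 ± 1.23 CPM in KO and 23.1 ± 1.04 CPM in WT (log2 fold change 0.05).

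Hif1a and Epas1, which encodes the related subunit HIF2α, were set against each other per kilobase. Hif1a made up 58.8%, 52.5% and 58.7% of their sum in the KO libraries, against 63.4%, 61.6% and 59.4% in the WT libraries. All 3 KO shares lay below all 3 WT shares, though KO replicates 1 and 3 and WT replicate 3 differed by less than 1 point. Epas1 itself, which was listed with the wider pathway, measured 122, 139 and 123 CPM in the KO libraries, against 112, 111 and 112 CPM in the WT libraries. Its libraries did not overlap and its unadjusted p was under 0.05, but it did not pass the adjusted threshold (log2 fold change 0.19, 95% interval 0.04 to 0.35, limma adjusted p = 0.866). The share was picked out after its values were seen and has no test of its own.

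Among the transporters, 0 of 4 passed the test in either direction. Slc2a1, which encodes the glucose transporter GLUT1, measured 111, 149.8 and 127 CPM in the KO libraries, against 156, 111 and 143 CPM in the WT libraries. The lowest values, in KO replicate 1 and WT replicate 2, were nearly equal across genotypes (log2 fold change −0.08, 95% interval −0.41 to 0.26, limma adjusted p = 0.919). The log2 fold change was −0.22 without WT replicate 2 and −0.33 without both replicate 2 libraries (limma adjusted p = 0.160), but 0.02 without KO replicate 1 and 0.02 without WT replicate 1. Slc2a1 made up 52.4% ± 2.56 of the 5 tested glucose transporters in KO and 54.0% ± 5.90 in WT, per kilobase. Slc2a6, a transporter of lysosomal membranes, followed with 25.9% ± 2.41 in KO and 26.3% ± 3.06 in WT. The remaining Slc2a8, Slc2a9 and Slc2a3 made up 9.84%, 7.55% and 4.24% in KO and 8.75%, 6.89% and 4.15% in WT.

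Lactate leaves cells mainly through the monocarboxylate transporter MCT4, encoded by Slc16a3, which averaged 189.8 ± 29.1 CPM in KO and 179 ± 18.7 CPM in WT (log2 fold change 0.08). It made up 74.5% ± 4.33 of the tested monocarboxylate transporters in KO and 72.0% ± 2.45 in WT, beside 17.1% ± 2.65 in KO and 19.7% ± 0.829 in WT for Slc16a1, and 8.36% ± 1.68 in KO and 8.25% ± 2.31 in WT for Slc16a7. Slc16a1, which encodes MCT1, had one of the most negative fitted fold changes of the genes described here. Its levels were 36.2, 32.7 and 38.4 CPM in the KO libraries, against 43.9, 37.3 and 41.0 CPM in the WT libraries. KO replicate 3 stood above WT replicate 2, so the genotypes overlapped, and the interval included 0 (log2 fold change −0.18, 95% interval −0.39 to 0.02, limma adjusted p = 0.866).

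In the first steps of glycolysis, 0 of 11 genes passed the test in either direction. Hk3 (chromosome 13, 55005985 to 55021385, on the minus strand, GRCm38) encodes a hexokinase found in myeloid cells. It measured 415, 459.7 and 405 CPM in the KO libraries, against 352, 385 and 370.4 CPM in the WT libraries. All 3 KO libraries were above all 3 WT libraries, and the nearest values were 405.4 CPM in KO replicate 3 and 384.9 CPM in WT replicate 2. Its unadjusted p was under 0.05 but the adjusted one was not (log2 fold change 0.21, 95% interval 0.04 to 0.38, limma adjusted p = 0.866). Over 14 alternative fits its log2 fold change was 0.15 to 0.24, and the lowest adjusted p was 0.382. As 1 of 37 genes without overlap, it makes up 2.70%, below the 9.95% over all tested genes.

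Hk3 dominated the hexokinases of these cells. Per kilobase it made up 74.7% ± 0.758 of the hexokinase level in KO and 72.0% ± 2.85 in WT (SD, n = 3 each). Hk1, the widely expressed form, made up 18.8% ± 0.657 in KO and 20.5% ± 1.55 in WT. Hk2, the form induced by HIF1 and insulin, made up only 6.47% ± 0.206 in KO and 7.50% ± 1.31 in WT. The Hk2 level was 59.5, 61.7 and 58.3 CPM in the KO libraries, against 70.7, 50.3 and 66.1 CPM in the WT libraries. The KO libraries lay close together and inside the range of the WT libraries (log2 fold change −0.04, 95% interval −0.32 to 0.23, limma adjusted p = 0.943). Leaving out WT replicate 2 gave −0.19, WT replicate 1 gave 0.05, and it was −0.21 without both replicate 2 libraries.

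Phosphofructokinase, the committing step, is built from 3 subunits that were unevenly expressed. The platelet form Pfkp made up 58.6%, 43.5% and 50.9% of the family per kilobase in the KO libraries, against 47.2%, 55.9% and 47.4% in the WT libraries. The liver form Pfkl made up 30.3%, 43.3% and 37.7% in the KO libraries, against 38.6%, 32.4% and 41.0% in the WT libraries. Libraries with more Pfkp had less Pfkl, apart from WT replicates 1 and 3, which had nearly the same Pfkp share, while the genotype means of each differed by less than 1 point. Shares of a family sum to 100%, so they cannot vary independently. Pfkp measured 437, 338 and 366 CPM in the KO libraries, against 338, 409 and 339 CPM in the WT libraries, and Pfkl measured 113, 167 and 135 CPM in the KO libraries, against 138, 118 and 146 CPM in the WT libraries. In levels, KO replicate 1 and WT replicate 2 had the most Pfkp and the least Pfkl, while KO replicate 2, WT replicate 1 and WT replicate 3 had nearly the same Pfkp and differed in Pfkl. Pfkm, the muscle form, made up 11.9% ± 1.13 in KO and 12.5% ± 1.44 in WT. The log2 fold changes were 0.07 for Pfkp, 0.03 for Pfkl and −0.02 for Pfkm. Without both replicate 2 libraries they were 0.24 for Pfkp, −0.20 for Pfkl and −0.15 for Pfkm.

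The PFKFB enzymes make and break fructose 2,6-bisphosphate, which activates phosphofructokinase. Pfkfb4 was the leading form per kilobase, with 56.0% ± 3.50 of the family in KO and 55.7% ± 2.72 in WT. Pfkfb3, the form that most favours synthesis, made up 25.4% ± 1.65 in KO and 25.4% ± 2.84 in WT. Pfkfb2 and Pfkfb1 were the minor forms, with 11.4% ± 0.838 for Pfkfb2 in KO and 11.8% ± 0.995 in WT, and 7.16% ± 1.08 for Pfkfb1 in KO and 7.10% ± 0.146 in WT. Pfkfb3 levels were 29.4, 29.1 and 28.1 CPM in the KO libraries, against 30.8, 27.0 and 25.8 CPM in the WT libraries. The 6 libraries lay close together and the genotypes overlapped (log2 fold change 0.05, 95% interval −0.14 to 0.24, limma adjusted p = 0.909).

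The remaining enzymes up to the split of the sugar were Gpi1, Aldoa and Tpi1. Gpi1, which converts glucose 6-phosphate to fructose 6-phosphate, averaged 673 ± 87.9 CPM in KO and 684 ± 66.2 CPM in WT (log2 fold change −0.03). Aldoa, the aldolase that splits fructose bisphosphate, had the highest level of all 37 genes, 586 CPM per kilobase in KO and 565 in WT, and was nearly the sole aldolase at 97.8% of the family in KO and 97.6% in WT, with Aldoc at 2.17% in KO and 2.36% in WT. Its log2 fold change was 0.05. Tpi1, which interconverts the triose phosphates, averaged 579 ± 58.0 CPM in KO and 547 ± 12.9 CPM in WT (log2 fold change 0.08).

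**Figure D2:**
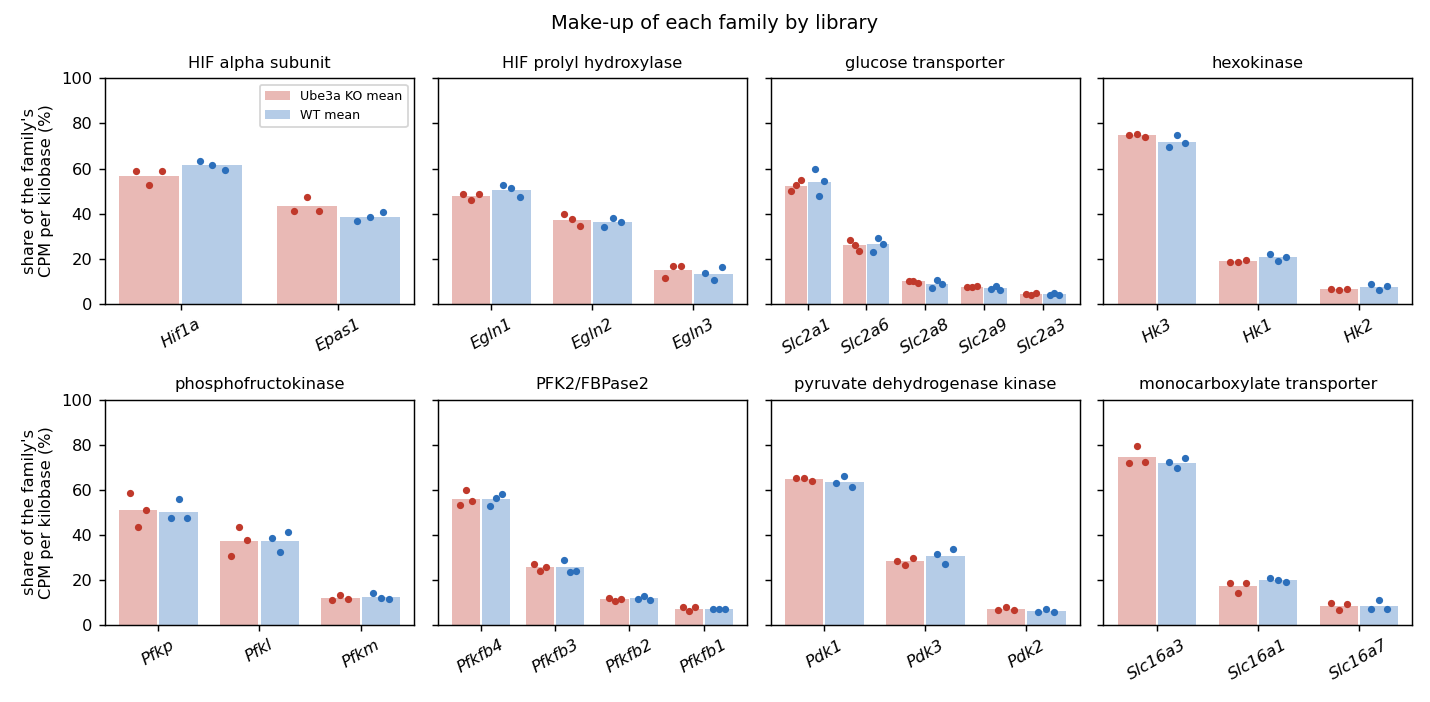
Share of each isozyme in the summed CPM per kilobase of its family, with bars for the KO mean (left) and WT mean (right) of each isozyme and points for the 3 libraries of each genotype. Hk3 holds 69.4% to 75.3% of the hexokinase level in every library, while the Pfkp share runs from 43.5% to 58.6% across libraries of both genotypes.

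In the second stage of glycolysis, 0 of 6 genes passed the test in either direction, and 5 of the 6 had a negative fitted fold change with a median of −0.03. Pkm, the pyruvate kinase that makes pyruvate and ATP, measured 1817, 1793 and 1849 CPM in the KO libraries, against 1897, 1735 and 1889 CPM in the WT libraries. The spread over all libraries was small and the genotypes overlapped (log2 fold change −0.02, 95% interval −0.21 to 0.18, limma adjusted p = 0.971). Ldha, the lactate dehydrogenase subunit whose promoter is shown above, measured 958, 1072 and 1005 CPM in the KO libraries, against 1108, 934 and 1065 CPM in the WT libraries. Here too the lowest values were those of KO replicate 1 and WT replicate 2, and the genotypes overlapped (log2 fold change −0.03, 95% interval −0.24 to 0.18, limma adjusted p = 0.945). Ldha made up 99.6% of the lactate dehydrogenase level in KO and 99.6% in WT, with Ldhb as the rest.

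Pgk1, which makes ATP from 1,3-bisphosphoglycerate, averaged 386 ± 41.2 CPM in KO and 411 ± 18.2 CPM in WT (log2 fold change −0.10). Pgam1, the mutase of the next step, averaged 71.1 ± 5.53 CPM in KO and 70.6 ± 5.78 CPM in WT (log2 fold change 0.01). Eno1, which makes phosphoenolpyruvate, averaged 499 ± 32.9 CPM in KO and 509 ± 39.0 CPM in WT (log2 fold change −0.03) and made up 97.8% of the tested enolases in KO and 98.2% in WT, beside Eno3 at 1.52% in KO and 1.28% in WT and Eno2 at 0.724% in KO and 0.513% in WT.

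Gapdh, the dehydrogenase between the stages and a common reference gene, was counted at a low level, 6.04, 9.19 and 7.58 CPM in the KO libraries, against 9.41, 8.42 and 9.40 CPM in the WT libraries. KO replicate 2 lay above WT replicate 2, and the genotypes overlapped (log2 fold change −0.24, 95% interval −0.57 to 0.08, limma adjusted p = 0.866). The log2 fold change was −0.11 without KO replicate 1 and −0.42 without both replicate 2 libraries. Its level averaged 1.84 CPM per kilobase in KO and 2.20 in WT, far below that of Tpi1, the preceding enzyme, at 210.2 CPM per kilobase in KO and 199 in WT. In the GENCODE M21 annotation, 213 pseudogenes share at least one run of 50 bases with Gapdh exons, and 25.1% of the 50-base runs of Gapdh occur in other genes. How the authors' counting treated reads with several matches is not stated in the labels, so the Gapdh level and its fold change are uncertain. The part of these shared runs in the low count was not tested.

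**Figure D3:**
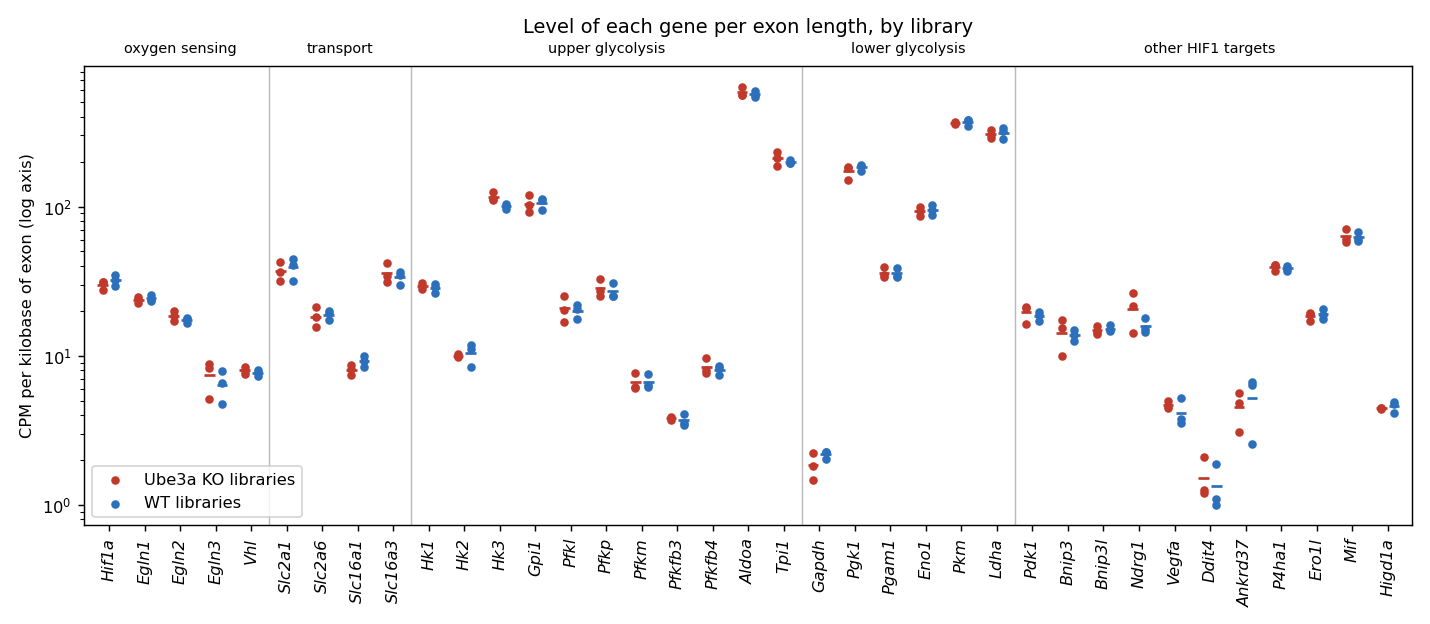
Level of each gene in CPM per kilobase of exon on a log axis, with each KO library and each WT library as a point, the mean of each genotype as a short line and the genes arranged by role. Aldoa is the highest at 586 in KO and 565 in WT, and Ddit4 the lowest at 1.52 in KO and 1.33 in WT.

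Of the 11 other HIF1 targets, 0 passed the test in either direction. Ndrg1 (chromosome 15, 66929318 to 66969640, on the minus strand, GRCm38), a stress gene strongly induced by low oxygen, had the most positive fold change of the genes described here. It measured 93.8, 174 and 142 CPM in the KO libraries, against 100.2, 95.9 and 118 CPM in the WT libraries. KO replicates 2 and 3 were above every WT library, while KO replicate 1 was below all 3 (log2 fold change 0.34, 95% interval −0.12 to 0.81, limma adjusted p = 0.866). The log2 fold change was 0.59 without KO replicate 1, 0.15 without KO replicate 2 and 0.09 without both replicate 2 libraries. Vegfa, the vascular growth factor that is the best known HIF target, measured 19.7, 19.1 and 21.2 CPM in the KO libraries, against 15.2, 22.2 and 16.2 CPM in the WT libraries. The highest value was that of WT replicate 2, and the genotypes overlapped (log2 fold change 0.17, 95% interval −0.14 to 0.49, limma adjusted p = 0.866). Leaving out WT replicate 1 gave 0.07, leaving out WT replicate 2 gave 0.33, and it was 0.36 without both replicate 2 libraries (limma adjusted p = 0.167). Pdk1, a kinase that inhibits pyruvate dehydrogenase, measured 128, 166 and 163 CPM in the KO libraries, against 153, 134 and 146 CPM in the WT libraries. KO replicate 1 was the lowest and KO replicate 2 the highest, so KO alone spanned the full range (log2 fold change 0.07, 95% interval −0.18 to 0.32, limma adjusted p = 0.911).

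Pdk1 made up 64.9% ± 0.784 of the pyruvate dehydrogenase kinases per kilobase in KO and 63.3% ± 2.57 in WT. Pdk3 made up 28.1% ± 1.51 in KO and 30.7% ± 3.24 in WT, and Pdk2 made up 6.99% ± 0.890 in KO and 6.03% ± 0.675 in WT.

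Ankrd37, an ankyrin-repeat gene often used as a hypoxia marker, varied most of all 37 genes, with its highest library at 2.63 times its lowest. The median of this ratio was 1.26 over the 37 genes and 1.27 over all tested genes. The median SD within genotype was also alike, 0.121 and 0.116 on the log2 scale. Ankrd37 measured 4.76, 8.64 and 7.43 CPM in the KO libraries, against 9.83, 3.93 and 10.3 CPM in the WT libraries. The low values were those of KO replicate 1 and WT replicate 2, and the spread within WT alone covered every KO library (log2 fold change −0.12, 95% interval −0.88 to 0.64, limma adjusted p = 0.942). Leaving out WT replicate 2 gave a log2 fold change of −0.51 and leaving out both replicate 2 libraries −0.67 (limma adjusted p = 0.162), while it was 0.09 once KO replicate 1 was left out, 0.06 for WT replicate 1 and 0.09 for WT replicate 3. Ddit4, a stress-induced inhibitor of mTORC1, was the lowest expressed, at 2.20, 3.69 and 2.096 CPM in the KO libraries, against 1.92, 1.77 and 3.33 CPM in the WT libraries. One library of each genotype, KO replicate 2 and WT replicate 3, stood above the others (log2 fold change 0.14, 95% interval −0.38 to 0.65, limma adjusted p = 0.914).

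The remaining targets lay between these. Bnip3 and Bnip3l, receptors for the removal of mitochondria, averaged 32.1 ± 8.44 CPM in KO and 31.2 ± 2.62 CPM in WT for Bnip3 and 57.1 ± 3.89 CPM in KO and 58.7 ± 3.20 CPM in WT for Bnip3l, with log2 fold changes of 0.01 for Bnip3 and −0.04 for Bnip3l. P4ha1 and Ero1l act on proteins in the endoplasmic reticulum, P4ha1 by hydroxylating collagen and Ero1l by driving disulfide formation, and had log2 fold changes of 0.03 for P4ha1 and −0.03 for Ero1l. Mif, a cytokine, averaged 46.9 ± 5.12 CPM in KO and 46.3 ± 3.42 CPM in WT, and Higd1a, a mitochondrial protein, averaged 13.5 ± 0.087 CPM in KO and 13.9 ± 1.15 CPM in WT. Higd1a had a log2 fold change of −0.04 and Mif of 0.02. Besides Gapdh, 20.8% to 53.9% of the 50-base exon runs of Pgk1, Mif, Bnip3, Pgam1, Eno1, Pkm, Higd1a and Bnip3l also occur in other genes, so their counts depend on how shared reads were treated. Genes on the opposite strand cover 26.4% of the Ankrd37 exons, 22.5% of those of Higd1a and 22.3% of those of Bnip3, and without a known strand setting their reads cannot be told apart.

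**Figure D4:**
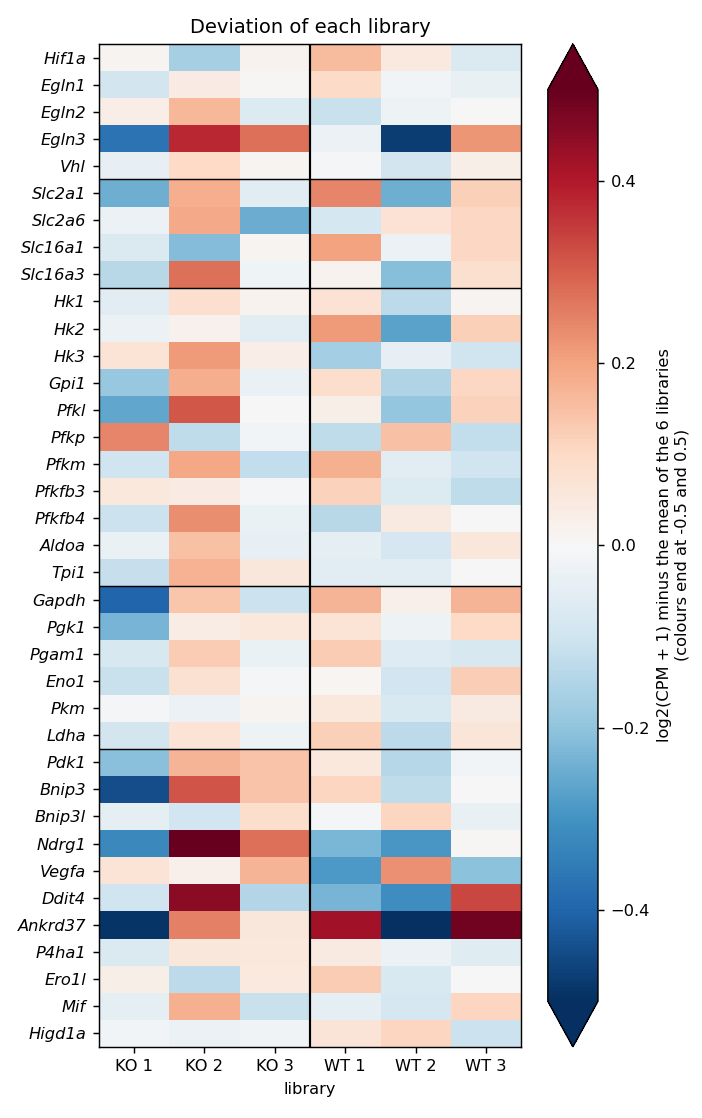
Deviation of each gene from its mean over the 6 libraries, in log2 of CPM plus 1, with the KO libraries left and the WT libraries right. KO replicate 2 is the highest library for 20 of the 37 genes, and KO replicate 1 and WT replicate 2 are each the lowest for 11.

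Many of the genes, though not all, also differed together between libraries of one genotype, a pattern picked out after the values were seen. KO replicate 2 was the highest library for 20 of the 37 genes (54.1%), against 25.1% of all tested genes. The lowest library was KO replicate 1 for 11 genes (29.7%), against 13.1% of all tested genes, and WT replicate 2 for another 11 (29.7%), against 15.6% of all tested genes. KO replicate 2 was the lowest for 4 genes (10.8%), against 26.7% of all tested genes. These were Hif1a, Slc16a1, Ero1l and Bnip3l. Pfkp was highest in KO replicate 1 and Vegfa in WT replicate 2. The median deviation of the 37 genes from their own mean was −0.08, 0.14 and 0.00 in the KO libraries, against 0.05, −0.08 and 0.01 in the WT libraries, on the log2 scale. The extremes were KO replicates 1 and 2, which share a genotype. With libraries scaled by the reads in the table, the medians were −0.10, 0.15 and 0.01 in the KO libraries, against 0.06, −0.10 and 0.03 in the WT libraries.

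Several values were set beside this order of libraries, and not all followed it throughout. The summed level of 12 interferon-stimulated genes, all in the table, was 1240.0, 301.4 and 619.9 CPM in the KO libraries, against 319.5, 1027 and 398.5 CPM in the WT libraries. That is the exact reverse of the order of the medians above, and the Pfkp share of phosphofructokinase ran in the same order as the interferon-stimulated genes. The 2 libraries with the lowest medians, KO replicate 1 and WT replicate 2, also had the fewest reads. Neutrophil markers, 10 of 12 in the table, summed to 8.998, 19.7 and 22.5 CPM in the KO libraries, against 34.4, 11.9 and 30.2 CPM in the WT libraries, and were lowest in those libraries too. KO replicate 2, with the highest median, was the highest library neither in reads nor in neutrophil markers. In a list of 41 tested further HIF targets, the median was also lowest in KO replicate 1 (−0.07) and highest in KO replicate 2 (0.12). For 10 proliferation genes it was −0.07 in KO replicate 1, −0.08 in WT replicate 2 and −0.06 in KO replicate 2. For 17 HIF pathway regulators it was highest in KO replicate 1 (0.03). Over all genes, KO replicate 1 and WT replicate 2 had the highest correlation of deviations between genotypes, 0.40. The part of interferon-stimulated genes, depth and neutrophil markers in these library differences was not tested.

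**Figure D5:**
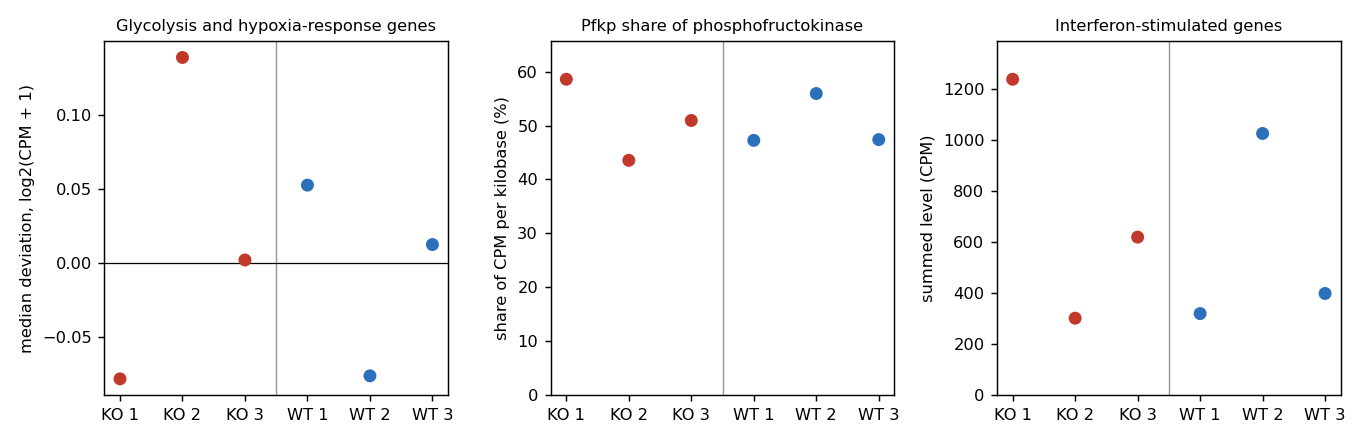
Median deviation of the 37 genes (log2 of CPM plus 1), Pfkp share of phosphofructokinase (percent of CPM per kilobase) and summed level of 12 interferon-stimulated genes (CPM) in each KO and WT library. The first falls as the other panels rise, with KO replicate 2 at 0.14, 43.5% and 301.4 CPM and KO replicate 1 at −0.08, 58.6% and 1240.0 CPM.

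Genes of neighbouring pathways were read from 7 lists of 170 genes, of which 145 were in the table and 134 were tested. Of the 134, 0 rose and 0 fell. The KO and WT libraries did not overlap for 5.22% of the 134, against 9.95% of all tested genes. An unadjusted p under 0.05 was reached by 3 (2.24%), against 4.13% of all tested genes. Epas1 and Gyg were higher in KO, as were 1.68% of all tested genes, and Pdgfb was lower in KO, as were 2.44%. Gyg, the protein on which glycogen synthesis starts, measured 125, 124 and 131 CPM in the KO libraries, against 92.4, 123 and 95.1 CPM in the WT libraries. WT replicate 2, at 122.6 CPM, lay just below the KO libraries, and the other WT libraries were lower (log2 fold change 0.30, 95% interval 0.05 to 0.54, limma adjusted p = 0.866). Pdgfb, a growth factor and HIF target, measured 93.9, 99.8 and 86.1 CPM in the KO libraries, against 105, 101 and 112 CPM in the WT libraries. All 3 KO libraries were below the WT libraries, by a small margin, and the adjusted threshold was not passed (log2 fold change −0.19, 95% interval −0.36 to −0.02, limma adjusted p = 0.866).

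The genes with the smallest p-values in these lists did not pass either. Among 17 tested regulators of the HIF pathway, Sirt1, a deacetylase, followed Epas1 averaging 41.2 ± 5.99 CPM in KO and 47.6 ± 2.44 CPM in WT (log2 fold change −0.21). Among 20 further glycolytic isozymes and transporters, these were the enolase Eno2 and the ADP-dependent glucokinase Adpgk, with log2 fold changes of 0.37 for Eno2 and −0.12 for Adpgk. Of the further HIF targets, 41 were tested, and Pdgfb had the smallest p-value.

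Of the pentose phosphate pathway, which branches from glucose 6-phosphate, 12 genes were tested, led by Rpe at −0.20 and Rpia at 0.12 in log2 fold change. Of 14 genes for pyruvate entry to the mitochondria, Pdk2 had a log2 fold change of 0.21 and Dld of −0.12. Of 15 glycogen genes, Pygb, a glycogen phosphorylase, followed Gyg with 0.15. Of 15 genes for glycolysis and HIF signalling in activated macrophages, Myc, a transcription factor, had −0.13 and Rps6kb1, a kinase downstream of mTORC1, had −0.14.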

How the data were processed

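Per the labels' protocols, the libraries are mRNA libraries prepared by a KAPA kit. The submitters' processing notes name HTSeq 0.11.0, HISAT2 2.1.0, Cufflinks, Trimmomatic 0.36 and FastQC 0.11.15 without their roles. Genome build, annotation and strand setting were not stated there or in the labels. The authors deposited 1 table of log2 CPM values with a prior count, per the file headers and from the values; it also holds the authors' p-values and log2 fold changes, not used here.

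Decimal marks lost in the deposited values of size 1 or more were restored from the fixed step that 1 read makes in each library, which returned whole reads (within 1e-06) for 100% of values. The scaled library sizes behind the deposited CPM were 0.982 to 1.02 times the reads in the table. CPM were then tested as log2(CPM + 1) with limma 3.58.1 in R 4.3.3 (eBayes with trend, two-sided, Benjamini-Hochberg over all tested genes, threshold 0.05), on genes that reached 1 CPM in 3 or more libraries. Fold changes are on that scale, KO over WT, which understates the change of low genes. Exon lengths, positions and shared 50-base runs came from GENCODE M21 on GRCm38, and promoters from RefSeq on GRCm38.p6. The exon length of a gene is the union of all its annotated exons, which can exceed the transcripts expressed, so levels and shares per kilobase are approximate. The restoring and fitting steps were tested on simulated data. The simulation for the fitting step gave all genes the same relative spread and no differences shared across a library. It therefore does not show how often real changes would be found in these libraries.

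The members and all lists were chosen with earlier results of these data known. Full values are given for Ube3a, members past the threshold or with an unadjusted p under 0.05, the 3 largest changes in each direction, the 3 largest SDs within genotype, and heads of their steps (Hif1a, Slc2a1, Hk2, Pfkfb3, Gapdh, Pkm, Ldha, Pdk1, Vegfa); of each other pathway list, the 2 genes with the smallest p, of which 1 is not reported here; of each family, all tested isozymes. Alternatives were another pseudocount, no filter, the deposited log2 values, limma-voom on the recovered reads, other library sizes, a replicate block and libraries left out.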

Additional observations from a re-analysis of the deposited data

How the results depend on the processing

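Of the 37 genes, 0 were called under all 14 alternative fits, with a lowest adjusted p of 0.160 over 518 gene fits (limma). The number of genes called over the whole table, 2, was 1 with no filter, 1 by limma-voom, 1 to 8 with a single library left out (8 without WT replicate 2, 1 without any other), and 23 without both replicate 2 libraries. The number of the 37 with a positive log2 fold change, 20, was 12 to 28 with a single library left out, and 8 without both replicate 2 libraries; 12 was the value without KO replicate 2. Of the 37, the 1 with an unadjusted p under 0.05 became 0 to 5 with a single library left out and 8 without both replicate 2 libraries. The median log2 fold change of the 37 stayed between −0.07 and 0.05. The sign of a gene's fold change differed from the one reported in 61 of the 518 fits, in 28 genes, and in none of these was an unadjusted p under 0.05 in either fit, which was the criterion for a reversal. Slc16a1, Gapdh, Pgk1, Ndrg1, Vegfa, Egln2, Hif1a, Hk3 and Pfkfb3 kept their sign throughout. The causes were not tested. Isozyme shares without length scaling differ by construction, by amounts that vary between families. In KO they were 58.0% in place of 74.7% for Hk3 and 33.9% in place of 18.8% for Hk1. For Pfkp they were 70.2% in place of 51.0%, for Pdk1 84.3% in place of 64.9%, and for Slc16a1 13.2% in place of 17.1%. With the replicate number as a block, 2 genes were called over the table and 0 of the 37. Over all genes, deviations of same-numbered libraries had correlations of −0.22, −0.13 and 0.14, within the −0.39 to 0.40 of differently numbered ones. Xist was low in replicate 2 of both genotypes, so whether the numbers pair the libraries cannot be told. With 3 libraries a genotype, the intervals reach beyond a 1.5-fold change for 4 of the 37.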
